A study of Homo sapiens with 10 samples.

Results

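The proteasome genes were taken as every gene whose platform symbol runs from PSMA to PSMG and ends in a number. They came to 42 of the 19775 genes read on these arrays, through 81 probe sets, and each gene is given by its brightest probe set over all 10 arrays. By role they comprised 7 genes of the 20S alpha ring, 10 of the 20S beta ring, 5 ATPases, 12 of the lid and base and 8 coding for activators, an inhibitor and assembly chaperones. PSMA6 and PSME2 were read only by probe sets annotated with another gene as well, so they are outside the 42 and their values are given beside their relatives. PSMC5, PSMD7 and PSMD13 were not analysed here.

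Total RNA came from K562, a leukaemia cell line established from a blast crisis with the BCR-ABL1 fusion gene, and from the microvesicles that it sheds. There were 5 arrays of cells and 5 of microvesicles, from 5 independent experiments with no treatment named, and the labels do not say whether equal replicate numbers share a culture. P-values therefore measure the spread between these preparations, which may in part be technical. All samples come from 1 line, and the values are relative to the rest of each array, so less RNA per vesicle cannot be seen in them. Of the K562 markers, 7 of 8 were matched, and HBE1 (11.72 in cells, 12.09 in microvesicles), TFRC (12.28 and 10.65) and TAL1 (8.72 and 7.94) were far above the array medians of 4.10 and 4.26. Of 12 markers of T cells, B cells, monocytes and platelets 11 were matched. Among these, 8 rose in microvesicles, to 5.53 at most, LYZ fell from 7.50 to 4.85, and PF4 and CD3D did not pass, CD3D with 8.18 in cells and 8.01 in microvesicles. Of all genes 35.5% rose and 31.2% fell. After loess by level, a rescaling described below, 4 of the 11 markers rose and 1 fell, against 26% and 18.8% of all genes. The summed linear level of these markers, as log2, ran from 8.74 to 9.82 in cells and from 8.62 to 9.41 in microvesicles. In such a sum CD3D and, in cells, LYZ weigh most, so it cannot show the 8 rises. The part of these markers in the results below was not tested.

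The 26S proteasome is the protease that removes most short-lived and damaged cytosolic and nuclear proteins once they carry ubiquitin chains. Its barrel, the 20S core, has outer alpha rings that gate the channel and inner beta rings that hold the catalytic sites. A 19S cap of an ATPase ring, a base and a lid recognises the ubiquitin chain, takes it off, unfolds the substrate and threads it into the core. Other activators can replace the cap, dedicated chaperones assemble the rings, and interferon induces alternative catalytic subunits that make the immunoproteasome. Growing leukaemia cells express the standard particle at a high level and are sensitive to inhibitors of its catalytic sites.

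Most proteasome mRNAs were lower in microvesicles than in cells in the deposited values. So were 55.7% of genes with a mean of at least 5, the level of 39 of the 42. At a limma adjusted p under 0.05, 29 of the 42 genes fell and 4 rose, and 9 did not pass. Of all 19775 genes 31.2% were called lower and 35.5% higher, 66.6% in all. The median change, microvesicles minus cells on the log2 scale, was -0.62 for the 42 genes against 0.20 for all genes. The largest falls were those of the activator PSME4 (3.19-fold), the ATPase PSMC4 (3.04-fold) and the assembly chaperone PSMG1 (2.66-fold). In all, 9 of the 42 genes fell at least 2-fold, a share near the 19.8% of all genes. The 5 cell arrays and the 5 microvesicle arrays did not overlap for 29 of the 42 genes (49.9% of all genes), namely for 28 of the 29 that fell, PSMB3 being the exception, and for PSMB5. This overlap was not counted among bright genes alone.

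**Figure D1:**
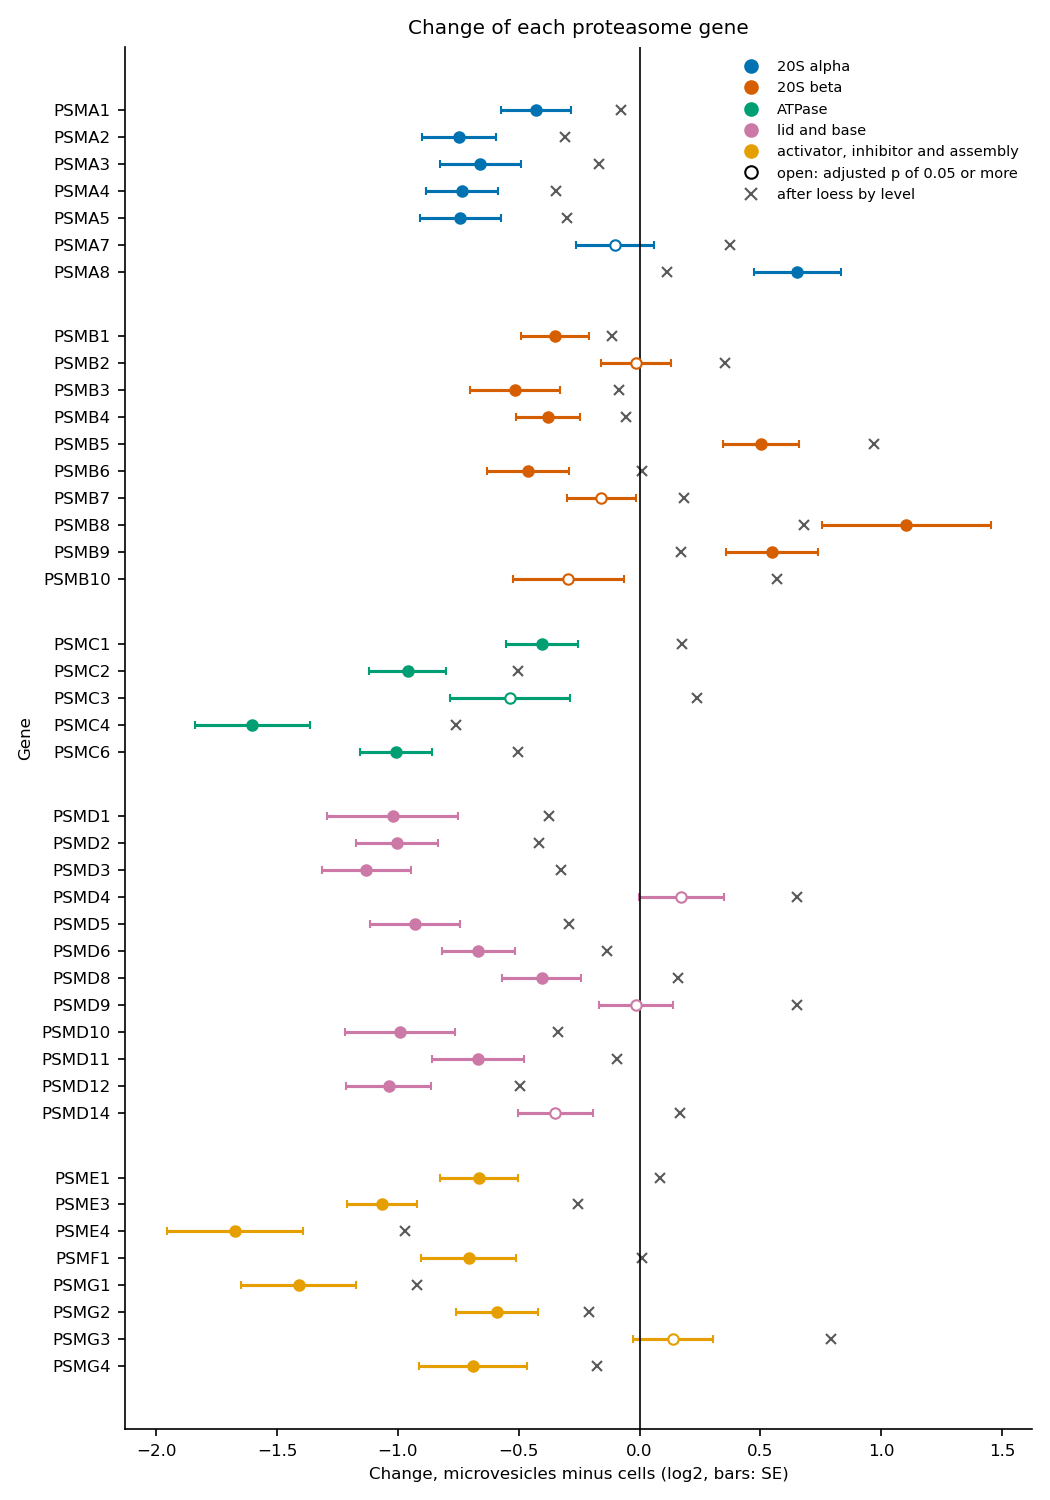
Change of each of the 42 proteasome genes, microvesicles minus cells on the log2 scale, with SE as bars; genes are grouped and coloured by role, open circles have an adjusted p of 0.05 or more, and crosses give the change after loess by level. Most filled circles lie left of 0, with PSME4 at -1.67 farthest, while PSMA8, PSMB5, PSMB8 and PSMB9 are the filled circles on the right and many crosses lie close to 0.

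The count of falls depended on how the arrays were scaled, and bright genes as a whole read lower in microvesicles. Among the 10118 genes with a mean of at least 5, 55.7% were called lower and 15.5% higher, and of the 39 proteasome genes at this level 30 fell and 1 rose. The median change at this level was -0.67 for the 39 genes and -0.60 for all genes. Loess by level fits each array against the mean array and removes the difference that goes with level. After it 8 of the 42 genes fell and 6 rose (18.8% and 26% of all genes, 44.8% called in all), with a median of -0.090 against 0.14 for all genes. A second quantile normalization gave 8 falls and 5 rises, against 16.5% and 26.5% of all genes. The share of proteasome genes that fell after either scaling, 19%, was thus near that of all genes. With each array centred on its median, 31 fell and 2 rose, against 34.7% and 25.7% of all genes.

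**Figure D2:**
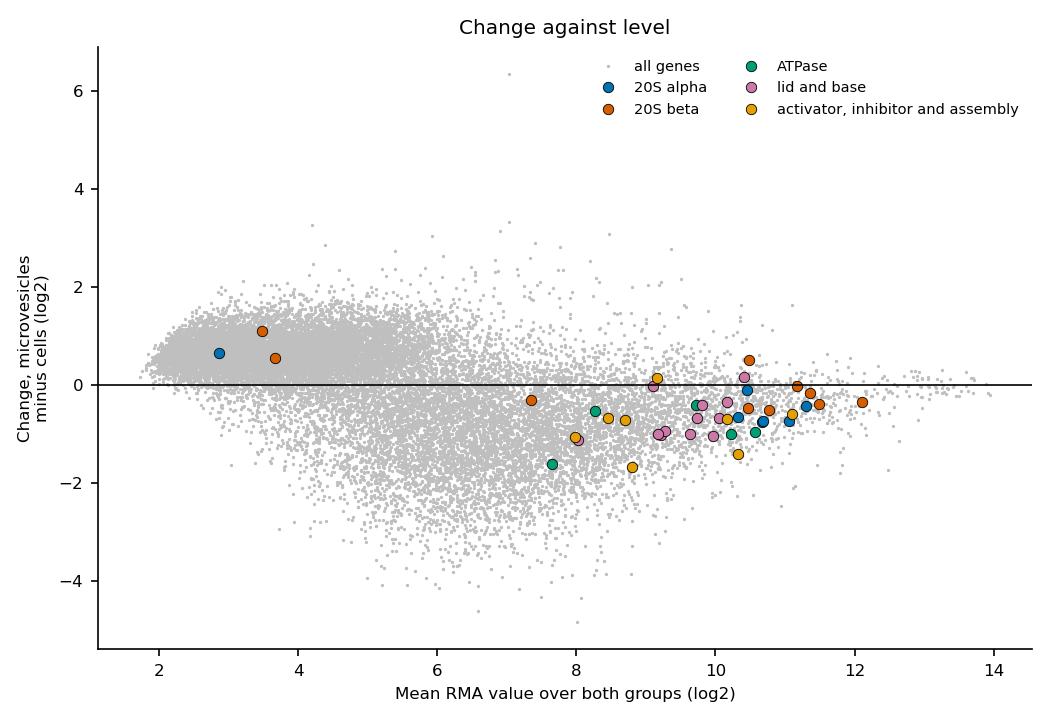
Change (microvesicles minus cells, log2) against the mean value over both groups (log2) for all 19775 genes in grey and the 42 proteasome genes coloured by role. The 3 members at the left, PSMA8, PSMB8 and PSMB9, lie in the cloud of dim genes that sits above 0, and the others lie among bright genes, most of which sit below 0.

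Of the 7 alpha ring genes of the core, 5 fell, 1 rose and 1 did not pass, with a median change of -0.66. Of all genes 31.2% fell and 35.5% rose, and of those with a mean of at least 5, 55.7% and 15.5%. Array values here and below are in the order of replicates 1 to 5. PSMA4 stood at 11.33, 11.40, 11.39, 11.52 and 11.46 in cells replicates 1 to 5 and 10.97, 10.60, 10.75, 10.43 and 10.70 in microvesicles replicates 1 to 5, and changed by -0.73 ± 0.15 (limma adjusted p = 0.000934). The lowest cell array lay above the highest microvesicle array, and PSMA4 was the 1 alpha gene that also fell after loess (-0.35, limma adjusted p = 0.0432). PSMA2 changed by -0.75 ± 0.15, PSMA5 by -0.74 ± 0.17 and PSMA1 by -0.43 ± 0.15 (limma adjusted p = 0.000959, 0.00199 and 0.0197), and after loess they stood at -0.31, -0.30 and -0.077. PSMA3 was 10.63, 10.63, 10.61, 10.75 and 10.65 in the cell arrays and 10.30, 10.02, 10.04, 9.49 and 10.12 in the microvesicle arrays. Its change of -0.66 ± 0.17 (limma adjusted p = 0.00412) was -0.53 without microvesicles replicate 4, the lowest array, and the groups did not overlap. PSMA3 stood at -0.17 after loess and did not pass (limma adjusted p = 0.363). PSMA7, also a ring subunit, was 10.51, 10.37, 10.34, 10.65 and 10.66 in the cell arrays and 10.79, 10.40, 10.27, 10.17 and 10.41 in the microvesicle arrays. These values overlapped, and the change of -0.10 ± 0.16 did not pass (limma adjusted p = 0.59) but stood at 0.37 after loess (limma adjusted p = 0.0478).

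PSMA8 codes for an alpha subunit that belongs to germ cells, and its values were dim in both groups. It was 2.68, 2.58, 2.42, 2.50 and 2.53 in the cell arrays and 3.52, 3.32, 3.10, 2.63 and 3.39 in the microvesicle arrays, and rose by 0.65 ± 0.18 (limma adjusted p = 0.00671). The values were below the array medians throughout, the groups overlapped at microvesicles replicate 4, and the change was 0.11 after loess (limma adjusted p = 0.629). The files hold no detection calls, so values this low may be background. PSMA6, the ring member read through probe sets shared with PRORP, had -0.55 in the brighter probe set (limma adjusted p over all probe sets = 0.00734) and -1.03 in the dimmer (0.000433).

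In the beta ring, 3 structural subunits and a catalytic one fell, and 3 catalytic ones rose. Of the 10 beta genes 4 fell (40%), 3 rose (30%) and 3 did not pass, against 31.2% lower and 35.5% higher of all genes. Their median was -0.23. After loess none of the 10 fell and 2 rose, against 18.8% and 26% of all genes. PSMB1, PSMB3 and PSMB4 are structural subunits and changed by -0.35 ± 0.14, -0.51 ± 0.19 and -0.38 ± 0.13 (limma adjusted p = 0.0417, 0.0264 and 0.0229). The call of PSMB1 was lost without any 1 of the cell arrays or without microvesicles replicate 2, 3 or 4, at adjusted p from 0.0512 to 0.0865, and with array weights (limma adjusted p = 0.0673). That of PSMB3 was lost without cells replicate 1 or 4 or microvesicles replicate 2, 3 or 4 (0.0509 to 0.0613) and in an exact rank sum test (0.0830), and that of PSMB4 without cells replicate 2 or 3 (0.0567 and 0.0556). A further bright probe set of PSMB4, at 11.06 in cells, changed by -0.016 (limma adjusted p over all probe sets = 0.936). Its dimmer one, at 6.56 in cells, changed by -0.79 (0.0169). PSMB2, a further structural subunit, was 11.14, 11.08, 11.13, 11.32 and 11.22 in the cell arrays and 11.40, 11.17, 11.11, 10.93 and 11.20 in the microvesicle arrays, which overlapped. Its change was -0.015 ± 0.15 (limma adjusted p = 0.929) and 0.36 after loess (limma adjusted p = 0.0407).

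PSMB5, which carries the chymotrypsin-like site that proteasome inhibitors mainly block, was the 1 bright member that rose. It stood at 10.26, 10.13, 10.07, 10.51 and 10.19 in cells replicates 1 to 5 and 10.60, 11.03, 10.67, 10.84 and 10.54 in microvesicles replicates 1 to 5. The highest cell array, replicate 4, lay just below the lowest microvesicle array, and the means were 10.23 ± 0.17 in the cell arrays and 10.74 ± 0.20 in the microvesicle arrays (SD, n = 5 each). The change was 0.50 ± 0.16 (limma adjusted p = 0.0133), 1.42-fold higher, and grew to 0.97 after loess (limma adjusted p = 0.000579) and 0.95 after a second quantile normalization. After median centring it was 0.34 and did not pass (limma adjusted p = 0.0717). This gene has 1 probe set here, so no other reading of it was compared.

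The other catalytic subunits of the standard core did not rise. PSMB6, with the caspase-like site, was 10.63, 10.61, 10.65, 10.90 and 10.69 in the cell arrays and 10.55, 9.82, 10.10, 10.43 and 10.27 in the microvesicle arrays, a change of -0.46 ± 0.17 (limma adjusted p = 0.0274). The call was lost without cells replicate 4 (-0.41, limma adjusted p = 0.0689) or 5 (-0.46, 0.0527) or microvesicles replicate 2 (-0.36, 0.0549) or 3 (-0.43, 0.0510), and the change was 0.0097 after loess. PSMB7, with the trypsin-like site, was 11.50, 11.36, 11.38, 11.51 and 11.44 in the cell arrays and 11.48, 11.26, 11.26, 11.05 and 11.33 in the microvesicle arrays. The groups overlapped and the change of -0.16 ± 0.14 did not pass (limma adjusted p = 0.33).

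The inducible catalytic subunits PSMB8 and PSMB9 were dim in both cells and microvesicles. PSMB8, which takes the place of PSMB5 in the immunoproteasome, was 2.74, 2.77, 2.99, 2.86 and 3.33 in the cell arrays and 4.15, 4.97, 4.77, 3.58 and 2.73 in the microvesicle arrays. Microvesicles replicate 5 read below the lowest cell array while replicates 1 to 4 read above all cell arrays, and the change was 1.10 ± 0.35 (limma adjusted p = 0.0139). PSMB9, which takes the place of PSMB6, was 3.30, 3.27, 3.66, 3.49 and 3.27 in the cell arrays and 4.04, 3.55, 3.59, 4.18 and 4.38 in the microvesicle arrays and rose by 0.55 ± 0.19 (limma adjusted p = 0.0219), with groups that overlapped. This call was lost without cells replicate 1 (0.52, limma adjusted p = 0.0507), 2 (0.52, 0.0538) or 5 (0.52, 0.0528). In an exact rank sum test adjusted over all genes neither PSMB8 (adjusted p = 0.19) nor PSMB9 (0.0509) passed, and PSMB9 did not pass after median centring (0.39, limma adjusted p = 0.0932). After loess the changes were 0.68 and 0.17 and neither passed. The means of PSMB8, PSMB9 and PSMA8 lay below the array median in both groups, the 3 members for which this held, so the size of these rises is uncertain. PSMB10, which takes the place of PSMB7, was well above the array medians at 7.17, 7.33, 7.54, 7.94 and 7.51 in the cell arrays and 7.82, 7.42, 6.84, 6.64 and 7.30 in the microvesicle arrays. Its values overlapped and its change of -0.29 ± 0.23 did not pass (limma adjusted p = 0.264), while it was 0.57 after loess (limma adjusted p = 0.0507) and passed as higher after a second quantile normalization (0.60, 0.0484).

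Each inducible subunit was set against the subunit it replaces by taking the difference of both log2 values within each array and comparing the groups. The level of such a difference depends on the probe sets, so only its shift between groups is read. PSMB9 relative to PSMB6 was -7.30 ± 0.18 in the cell arrays and -6.29 ± 0.26 in the microvesicle arrays (SD, n = 5 each), higher by 1.01 in microvesicles with no overlap between groups (2-sided exact permutation p = 0.00794, the smallest possible, adjusted p = 0.0238 over the 3 pairs). The mean of PSMB9 lay below the array median in both groups, and its values may be background. The difference thus joins the rise of a dim probe set to the fall of a bright one. After loess the difference was 0.16 (exact permutation, adjusted p = 0.345). PSMB8 relative to PSMB5 differed by 0.60 (exact permutation p = 0.167, adjusted p = 0.25) and PSMB10 relative to PSMB7 by -0.14 (exact permutation p = 0.468, adjusted p = 0.468). Their microvesicle arrays overlapped with the cell arrays.

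**Figure D3:**
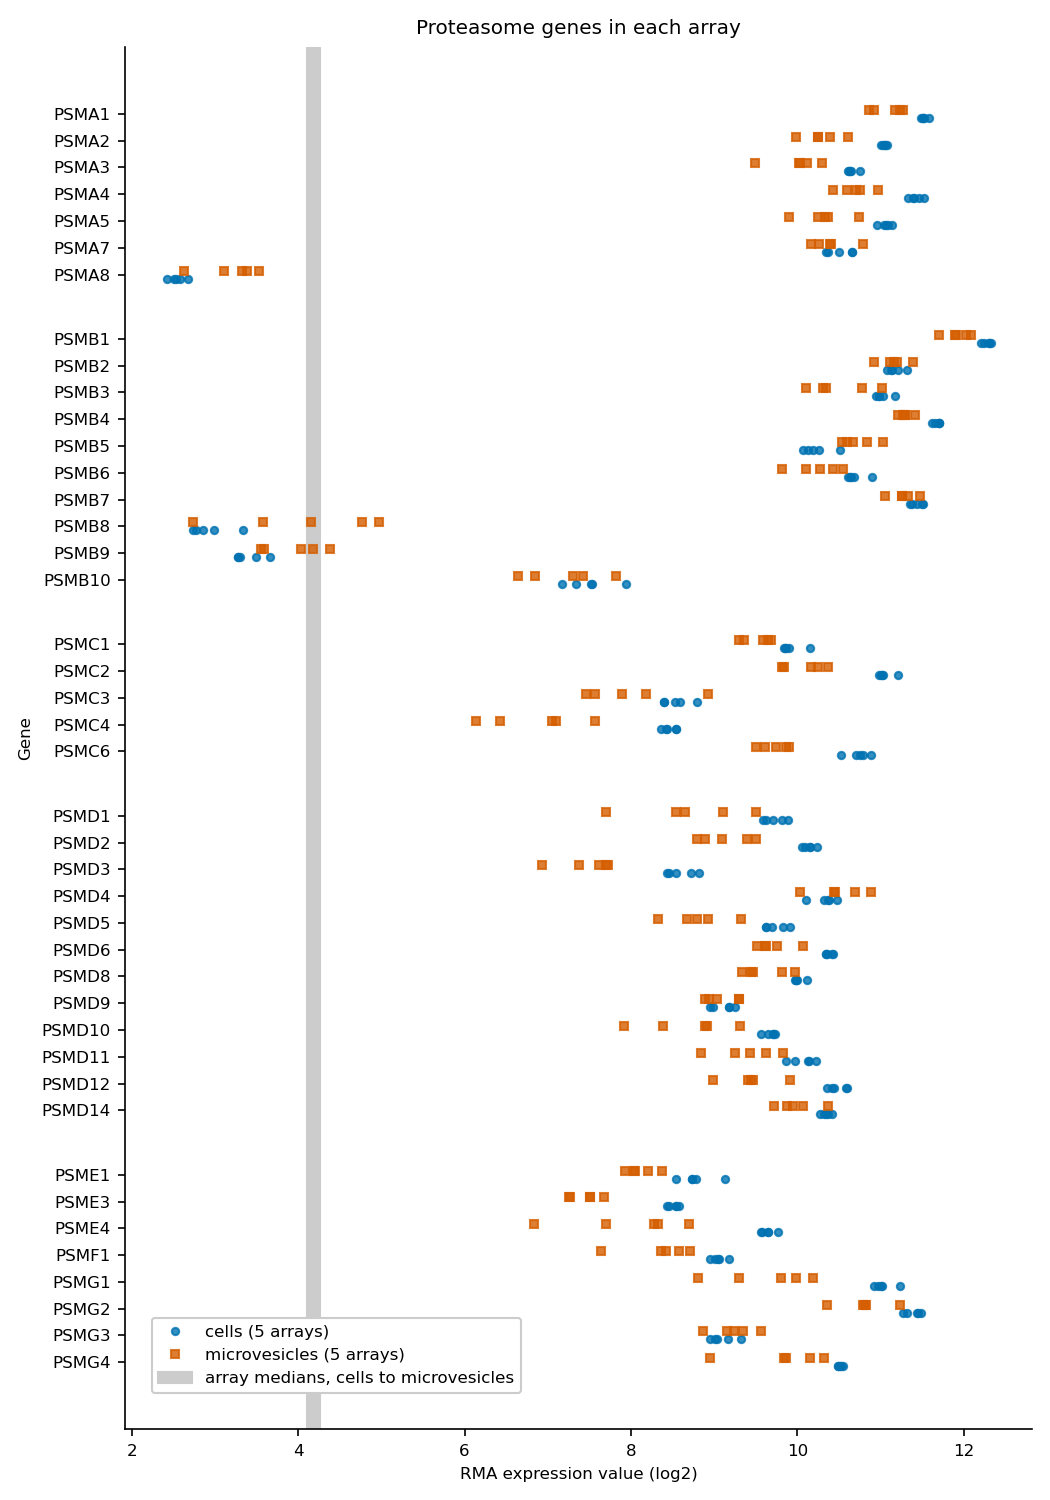
Values of the 42 proteasome genes (log2, RMA) in each of the 5 cell arrays (circles) and 5 microvesicle arrays (squares), by role from the alpha ring at the top to activators and assembly chaperones at the bottom; the grey band spans the array medians of 4.10 and 4.26. Microvesicle arrays spread more widely than cell arrays for most genes, PSME4 for example from 6.83 to 8.69 against 9.57 to 9.77, and PSMA8, PSMB8 and PSMB9 stand apart at the left.

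The ATPase genes, whose products form the unfolding ring of the cap, had the lowest median change of the 5 roles, -0.96, and -0.50 after loess. Of the 5, 4 fell and 1 did not pass. Of all genes 31.2% fell, and of those with a mean of at least 5, 55.7%. After loess 3 of the 5 fell, against 18.8% of all genes. Whether the roles differ was not tested. PSMC4 was 8.54, 8.36, 8.43, 8.54 and 8.42 in cells replicates 1 to 5 and 7.57, 6.13, 7.05, 6.43 and 7.10 in microvesicles replicates 1 to 5. Cells were within 8.36 to 8.54 while microvesicles reached from 6.13 to 7.57, and the change was -1.60 ± 0.24 (limma adjusted p = 8.93e-05), 3.04-fold lower, and -0.76 after loess (limma adjusted p = 0.00815). PSMC6 was 10.75, 10.89, 10.79, 10.53 and 10.71 in the cell arrays and 9.89, 9.61, 9.75, 9.50 and 9.87 in the microvesicle arrays. All microvesicle arrays lay below the cell arrays, a change of -1.01 ± 0.15 (limma adjusted p = 8.91e-05), and it stood at -0.50 after loess (limma adjusted p = 0.00922). PSMC2 changed by -0.96 ± 0.16 (limma adjusted p = 0.00022) and by -0.50 after loess. PSMC1 changed by -0.40 ± 0.15 (limma adjusted p = 0.0299), a call that was lost without cells replicate 2, 3, 4 or 5 or microvesicles replicate 3, at adjusted p from 0.0520 to 0.0785, and its change was 0.17 after loess. PSMC3 did not pass (-0.54 ± 0.25, limma adjusted p = 0.0692). Its microvesicle values ran from 7.47 to 8.93 and overlapped with the cells, and without microvesicles replicate 1, the highest, the change was -0.77 (limma adjusted p = 0.00282). After median centring PSMC3 also passed (-0.69, limma adjusted p = 0.0283), and after loess it was 0.24 (0.393).

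The base and lid genes contain the scaffold, the ubiquitin receptors and the deubiquitinase of the cap. Of the 12, 9 fell, none rose and 3 did not pass, with a median of -0.80. Of all genes 31.2% fell and 35.5% rose, and of those with a mean of at least 5, 55.7% and 15.5%. After loess PSMD2 and PSMD12 fell, PSMD4 and PSMD9 rose and the median was -0.21. Over all genes 18.8% fell and 26% rose after loess. PSMD1 and PSMD2 are the large scaffold subunits of the base, on which ubiquitin shuttles dock. PSMD1 was 9.70, 9.62, 9.59, 9.88 and 9.82 in the cell arrays and 9.50, 8.54, 8.65, 7.70 and 9.11 in the microvesicle arrays, a change of -1.02 ± 0.27 (limma adjusted p = 0.00513). Its microvesicle arrays spread widely, from 7.70 in replicate 4 to 9.50 in replicate 1, below the lowest cell array of 9.59, and the change was -0.37 after loess (limma adjusted p = 0.208). PSMD2 changed by -1.005 ± 0.17 (limma adjusted p = 0.000247) and by -0.42 after loess (limma adjusted p = 0.0318).

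The lid subunits PSMD3 and PSMD12, which hold the lid together, were among the largest falls. PSMD3 was 8.72, 8.46, 8.54, 8.82 and 8.43 in the cell arrays and 7.72, 7.37, 7.61, 6.92 and 7.69 in the microvesicle arrays. The groups did not overlap, and the change was -1.13 ± 0.18 (limma adjusted p = 0.000176) and -0.33 after loess (limma adjusted p = 0.12). PSMD12 was 10.42, 10.44, 10.36, 10.59 and 10.59 in the cell arrays and 9.91, 9.44, 9.47, 8.98 and 9.41 in the microvesicle arrays, a change of -1.04 ± 0.18 (limma adjusted p = 0.000257) and of -0.50 after loess (limma adjusted p = 0.0138). No microvesicle array reached the cell range. The lid genes PSMD6, PSMD8 and PSMD11 changed by -0.67 ± 0.15, -0.41 ± 0.16 and -0.67 ± 0.19 (limma adjusted p = 0.0019, 0.0397 and 0.00768). Their changes after loess were -0.14, 0.16 and -0.093, and none passed (limma adjusted p = 0.421, 0.397 and 0.673). Leaving out any 1 of the cell arrays or microvesicles replicate 2, 3 or 4 ended the call of PSMD8, at adjusted p from 0.0604 to 0.0834.

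PSMD14 and PSMD4, which handle the ubiquitin chain itself, did not pass. PSMD14, the deubiquitinase that cuts the chain off at the mouth of the ring, changed by -0.35 ± 0.16 (limma adjusted p = 0.0636). Its highest microvesicle array was replicate 1 at 10.37, within the cell range, and without it the change was -0.44 (limma adjusted p = 0.0138). After median centring PSMD14 was -0.51 (0.0153), and it also passed with a variance trend (-0.35, 0.0199). PSMD4, a ubiquitin receptor, changed by 0.17 ± 0.18 (limma adjusted p = 0.392) with 10.10 to 10.47 in cells and 10.03 to 10.88 in microvesicles, and by 0.65 after loess (limma adjusted p = 0.00327). In the deposited values its other bright probe sets, at 10.44 and 9.95 in cells, both changed by -0.33 (limma adjusted p over all probe sets = 0.161 and 0.132), and a dim one by 0.46 (0.104).

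PSMD5, PSMD9 and PSMD10 code for chaperones that help to assemble the base and leave the finished particle. PSMD5 and PSMD10 fell, by 0.93 ± 0.19 and 0.99 ± 0.23 on the log2 scale (limma adjusted p = 0.000838 and 0.00219), and stood at -0.29 and -0.34 after loess. PSMD9 had the smallest change of the 42 genes, at 9.25, 8.96, 8.99, 9.18 and 9.18 in the cell arrays and 8.94, 8.89, 9.30, 9.04 and 9.30 in the microvesicle arrays. The change was -0.013 ± 0.15 (limma adjusted p = 0.942), but 0.65 after loess (limma adjusted p = 0.00496).

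The 3 activator genes and the inhibitor gene among the 42 all fell in the deposited values. Of all genes 31.2% did, and of those with a mean of at least 5, 55.7%. PSME4 codes for a large nuclear activator that caps the core in place of the 19S particle, and was 9.77, 9.58, 9.57, 9.64 and 9.65 in cells replicates 1 to 5 and 8.69, 7.71, 8.27, 6.83 and 8.33 in microvesicles replicates 1 to 5. The lowest microvesicle array was replicate 4 and the highest replicate 1, and all lay below the cells. The means were 9.64 ± 0.08 in the cell arrays and 7.97 ± 0.73 in the microvesicle arrays (SD, n = 5 each), a change of -1.67 ± 0.28 (limma adjusted p = 0.000248), 3.19-fold lower. It was the largest fall after loess as well, -0.97 (limma adjusted p = 0.00518), and its other probe sets changed by -2.10 and -0.96.

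PSME3, which forms a nuclear ring activator on its own, was 8.58, 8.46, 8.54, 8.54 and 8.44 in the cell arrays and 7.68, 7.27, 7.51, 7.25 and 7.51 in the microvesicle arrays. No array of the groups overlapped and all 4 of its probe sets fell, but the change of -1.07 ± 0.15 (limma adjusted p = 4.77e-05) was -0.26 after loess (limma adjusted p = 0.129). PSME1, a subunit of the interferon-inducible activator that is made with PSME2, was 8.54, 8.73, 8.78, 9.13 and 8.74 in the cell arrays and 8.04, 7.93, 8.20, 8.05 and 8.38 in the microvesicle arrays. It fell by 0.67 ± 0.16 on the log2 scale (limma adjusted p = 0.00302) without overlap, and stood at 0.084 after loess. PSME2, read through a probe set shared with MIR7703, changed by -0.068 (limma adjusted p over all probe sets = 0.727). PSMF1, named for its inhibition of the core in the test tube, was 8.95, 9.18, 9.05, 9.05 and 9.01 in the cell arrays and 8.71, 7.64, 8.36, 8.42 and 8.58 in the microvesicle arrays. Its change of -0.71 ± 0.19 (limma adjusted p = 0.00648) was 0.0099 after loess (limma adjusted p = 0.97), and microvesicles replicate 2 was the lowest array.

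Of the chaperones that build the alpha ring, 3 fell and 1 did not pass. The share that fell was 31.2% of all genes and 55.7% of those with a mean of at least 5. PSMG1 was 11.001, 11.02, 10.97, 11.23 and 10.93 in cells replicates 1 to 5 and 10.19, 9.30, 9.81, 8.80 and 9.98 in microvesicles replicates 1 to 5. Microvesicles lay between 8.80 and 10.19 and cells between 10.93 and 11.23, and the SD was 0.56 in microvesicles and 0.12 in cells. The change was -1.41 ± 0.24 (limma adjusted p = 0.000234), 2.66-fold lower, and -0.92 after loess (limma adjusted p = 0.00201). Its obligate partner PSMG2 changed by -0.59 ± 0.17 (limma adjusted p = 0.00859) and by -0.21 after loess (limma adjusted p = 0.255). PSMG3 and PSMG4 also act as a pair. PSMG4 was 10.54, 10.53, 10.50, 10.52 and 10.48 in the cell arrays and 10.15, 9.86, 9.84, 8.95 and 10.32 in the microvesicle arrays, a change of -0.69 ± 0.22 (limma adjusted p = 0.016), lowest in microvesicles replicate 4. Its change was -0.18 after loess (limma adjusted p = 0.494). PSMG3 was 9.17, 9.03, 8.95, 9.33 and 9.01 in the cell arrays and 9.57, 9.35, 8.87, 9.23 and 9.16 in the microvesicle arrays, which overlapped, with a change of 0.14 ± 0.17 (limma adjusted p = 0.471) that was 0.79 after loess (limma adjusted p = 0.00148).

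A set of 8 genes fell in the deposited values, with median centring, after a second quantile normalization and after loess. They were PSMA4 of the alpha ring, the ATPases PSMC2, PSMC4 and PSMC6, the base and lid genes PSMD2 and PSMD12, the activator PSME4 and the assembly chaperone PSMG1. This is 19% of the 42 genes, against 15.8% of all genes. No proteasome gene rose in all 4 scalings, whereas 15.8% of all genes did.

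Proteasome genes are known to be induced together by the factors NFE2L1 and NFE2L2 through antioxidant response elements, so the windows around their start sites are shown as sequence context. Promoter windows of 300 bases, 250 before and 50 after the start, were found for 36 of the 42 genes in RefSeq (GRCh38.p14), 43 windows in all since 6 genes had several. The core of the element, TGACNNNGC on either strand, was in 13 of the 43 windows (30.2%) and in 13.8% of 22199 windows of protein-coding genes. The CCAAT box, CCAAT, was in 39.5% against 34.7%, and the ETS site, CCGGAAG, in 27.9% against 12.8%. No matches of different motifs overlapped within the 43 windows. A match is a string of letters and not a known binding site, and these arrays do not measure transcription. Of the 8 genes that fell in all 4 scalings, 5 had the core in a window, namely PSMA4, PSMC4, PSMD12, PSME4 and PSMG1, against 13 of all 36 genes with a window. The 13 also included PSMB9, which rose, and PSMD9, which had the smallest change, so the match is given as context and not tied to a direction. The 250 bases before the start are shown for 3 of these that had the match there, PSME4 at chr2:53970994-53971243, PSMG1 at chr21:39183452-39183701 and PSMD12 at chr17:67366578-67366827, all on the minus strand of GRCh38.p14, read 5′ to 3′ along the gene with the match in capitals.
PSME4: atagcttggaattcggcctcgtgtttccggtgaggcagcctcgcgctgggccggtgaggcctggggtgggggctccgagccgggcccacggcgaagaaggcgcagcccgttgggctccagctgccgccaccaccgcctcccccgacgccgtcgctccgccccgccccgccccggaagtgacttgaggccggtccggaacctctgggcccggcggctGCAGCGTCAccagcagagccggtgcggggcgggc
PSMG1: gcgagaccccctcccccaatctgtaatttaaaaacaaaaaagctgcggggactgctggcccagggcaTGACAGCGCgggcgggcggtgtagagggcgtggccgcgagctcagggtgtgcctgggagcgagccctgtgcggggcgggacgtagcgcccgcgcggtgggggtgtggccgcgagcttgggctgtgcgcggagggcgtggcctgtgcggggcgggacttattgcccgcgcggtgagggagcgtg
PSMD12: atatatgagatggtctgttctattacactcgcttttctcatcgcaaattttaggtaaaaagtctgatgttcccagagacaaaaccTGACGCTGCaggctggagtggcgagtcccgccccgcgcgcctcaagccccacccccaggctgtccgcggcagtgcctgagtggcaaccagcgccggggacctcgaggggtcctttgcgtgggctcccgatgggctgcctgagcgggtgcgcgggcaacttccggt
The match of PSME4 starts 34 bases before the start site and lies on the opposite strand, that of PSMG1 starts 183 bases and that of PSMD12 165 bases before it, both on the strand of the gene.

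Probe sets of the same gene did not always give the same change. Of the 42 genes 22 had more than 1 probe set, and in 3 of them, PSMA3, PSMB2 and PSMG4, probe sets passed in both directions. Of the 81 probe sets 48 fell, 7 rose and 26 did not pass, with p-values adjusted over 54613 probe sets, of which 62.4% passed. That share was not split by direction, so the falls and rises have no share beside them. For PSMB2 the bright probe sets stood at -0.015 and -0.041, a dim one rose by 1.19 from 2.42 in cells, and another changed by -1.17 from 5.42. PSMA3 had a dim probe set that rose by 0.48 from 4.44. PSMG4 had one that rose by 0.86 from 1.91 and one that changed by -0.85 from 3.92. With the mean of its probe sets PSMA3 changed by -0.19 (limma adjusted p = 0.196) and PSMG4 by -0.11 (limma adjusted p = 0.501), and neither passed. By the same mean PSMD6 was at -0.29 (limma adjusted p = 0.0823) and PSMB1 at -0.35 (0.0520), not past the threshold, while PSMB7 fell by 0.50 on the log2 scale (0.00459). Without probe sets that may hybridise to other transcripts (suffixes _s_at and _x_at), PSMB1 (-0.33, limma adjusted p = 0.360), PSMG4 (-0.41, 0.183) and PSMD10 (-0.38, 0.0641) did not pass and PSMB2 was at -1.17 (0.00684). PSMD12 changed by -1.04 in the bright probe set and by -2.86 in the other. The probe sets of PSMC2 (-0.96, -1.64 and -1.24) and PSMD1 (-1.02 and -1.52) fell in every case, the brightest by the least.

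**Figure D4:**
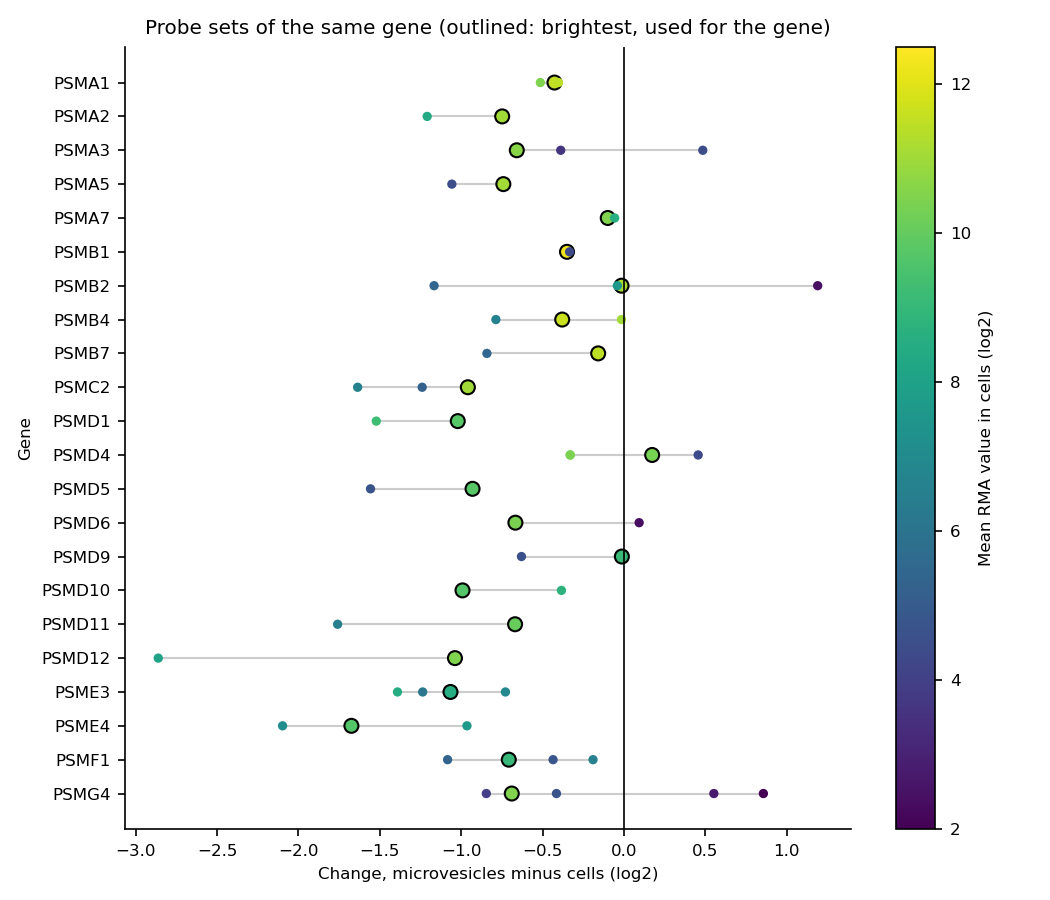
Change (microvesicles minus cells, log2) in each probe set of the 22 proteasome genes with more than 1, coloured by the mean value in cells (log2), with the brightest probe set, used for the gene, outlined. The probe sets of PSMB2 reach from -1.17 to 1.19, and PSMD12 holds the lowest value, -2.86.

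The microvesicle arrays differed among themselves in the same way for most of these genes. Replicate 1 was the highest of the 5 microvesicle arrays in 35 of the 42 genes and replicate 4 the lowest in 29. The median of the 42 genes was 9.94 in replicate 1 and 9.30 in replicate 4, while that of all genes was 5.04 and 5.12. Other bright genes were not counted this way, so the counts cannot be read as particular to proteasome genes. Without microvesicles replicate 1, 31 genes fell and 4 rose, and without replicate 4, 26 fell and 4 rose. Among cells, replicate 4 was the highest in 22 genes. Measures of RNA integrity moved with the groups too. For the beta-actin controls the 3' probe set exceeded the 5' probe set by 2.39 ± 0.15 in cell arrays and by 3.12 ± 0.34 in microvesicle arrays (log2, SD, n = 5 each, 2-sided exact permutation p = 0.00794). For GAPDH the same measure shifted less, from 0.45 ± 0.064 to 0.62 ± 0.13, with groups that overlapped (2-sided exact permutation p = 0.0159). The part of RNA integrity in the falls of proteasome genes was not tested.

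Other genes of the ubiquitin pathway were counted in the same way, beside the 31.2% of all genes, and the 55.7% of genes with a mean of at least 5, that were called lower. Of 12 factors that bind the proteasome 9 fell and none rose, with a median of -0.60, the same as for all genes with a mean of at least 5, and after loess 4 fell and 2 rose (18.8% and 26% of all genes). UBLCP1, a phosphatase of the nuclear proteasome, changed by -1.76 ± 0.30 (limma adjusted p = 0.000243), and the chain-trimming enzymes USP14 and UCHL5 by -1.23 ± 0.19 and -1.33 ± 0.31 (limma adjusted p = 0.000113 and 0.0023). The ubiquitin receptor ADRM1 stood at 0.13 ± 0.16 (limma adjusted p = 0.478) and at 1.002 after loess. For ubiquitin and its activation 3 of 6 genes were matched and all 3 fell, also after loess, with UBA6, an activating enzyme, at -1.53 ± 0.20. Among shuttles and the segregase 4 of 7 fell and none rose, led by the shuttle UBQLN2 at -2.18 ± 0.18, and after loess 1 fell and 1 rose. Of the transcription regulators NFE2L2 changed by -0.84 ± 0.23 (limma adjusted p = 0.00655) and NFE2L1 by -0.45 ± 0.31 (limma adjusted p = 0.201), which did not pass. NGLY1, the deglycosylase that activates NFE2L1, changed by -0.69 ± 0.24 (limma adjusted p = 0.0202). None of these 3 passed after loess, where NFE2L2 was at -0.26 (limma adjusted p = 0.357) and NGLY1 at -0.072 (0.802).

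The COP9 signalosome, which is built like the lid and removes NEDD8 from cullin ligases, is a related complex. Of its 9 genes 6 fell and none rose, with a median of -0.73, beside 55.7% lower and a median of -0.60 for all genes with a mean of at least 5. After loess 1 fell, COPS2, against 18.8% of all genes, and the median was 0.071. Among 7 matched genes that process antigen together with the immunoproteasome 3 fell and none rose, before and after loess, where 31.2% and 18.8% of all genes fell. The peptide trimming enzyme ERAP1 changed by -2.73 ± 0.22 (limma adjusted p = 8.23e-07) and stood at -1.95 after loess. TAP1 and TAP2, whose products carry peptides from the proteasome into the endoplasmic reticulum, changed by 0.15 ± 0.23 and 0.48 ± 0.36 and did not pass (limma adjusted p = 0.57 and 0.24).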

How the data were processed

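RNA of 5 K562 cell and 5 microvesicle preparations was measured on 10 Affymetrix arrays. The deposited values are log2 expression per probe set made by the authors with RMA, per the submitters' processing notes; its version is not given in the sources used here. This method scales the arrays to each other, so a different total amount of RNA is not visible. The deposited values still differed between groups, with array medians of 4.08 to 4.12 in cells and 4.22 to 4.28 in microvesicles. Of 54630 probe sets, 17 controls, 1801 with several genes and 11721 with none listed were left out. The other 41091 gave 19775 genes, each by its brightest probe set, with symbols updated by gene number for 41037. Groups were compared with limma 3.58.1 in R 4.3.3 (lmFit, eBayes, 2-sided), with Benjamini-Hochberg adjustment over all 19775 genes and a threshold of 0.05. The code was tested on simulated data. Precision is limited by the number of arrays. The members and lists were chosen with earlier results of these data known. Every member is accounted for. Values in every array are given for up to 8 rises, the 8 largest falls, the 4 smallest changes, the catalytic, activator and inhibitor genes and genes whose probe sets passed in both directions. Alternatives changed the scaling, the probe set, the filter, the variance model, the test, the block and the arrays used. Loess was fitted over all probe sets of an array.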

Additional observations from a re-analysis of the deposited data

Results flagged for a closer look

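Cells replicate 4 stood apart in 5 proteasome genes, each time as the highest of the 5 cell arrays. PSMA3 was 10.75 there against 10.61 to 10.65 in the other cell arrays. PSMB6 was 10.90 there against 10.61 to 10.69 in the other cell arrays. PSMC1 was 10.15 there against 9.84 to 9.90 in the other cell arrays. PSMC2 was 11.21 there against 10.98 to 11.03 in the other cell arrays. PSMD8 was 10.12 there against 9.97 to 10.001 in the other cell arrays. The gap to the nearest array exceeded Dixon's critical value of 0.71 of the range in these cases. In all 84 groups of 5 arrays were examined this way, and chance passes about 1 in 20. Without this array PSMB6 (-0.41, limma adjusted p = 0.0689), PSMC1 (-0.35, 0.0785) and PSMD8 (-0.38, 0.0834) lost their call, and PSMA3 (-0.63) and PSMC2 (-0.92) kept it.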

How the results depend on the processing

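The 29 falls and 4 rises among proteasome genes depended mainly on the scaling. A second quantile normalization gave 8 falls and loess 8, centring on the median 2 rises, the filter at a mean of 5 gave 1 rise, and the exact rank sum test 2 rises. The filter removes PSMA8, PSMB8 and PSMB9, so their rises were not tested under it. Of all 19775 genes 13179 passed the threshold (66.6%), and 8500 after quantile normalization (43%). Under the filter 7203 of 10118 genes passed (71.2%). Without 1 array in turn, falls ranged from 24 to 31, rises from 3 to 4 and all genes from 11664 to 13411. Signs turned after quantile normalization for PSMA7 0.35, PSMB10 0.60, PSMB2 0.34, PSMB7 0.18, PSME1 0.11, PSMF1 0.0097, PSMC1 0.12, PSMC3 0.28, PSMD14 0.14, PSMD8 0.11, PSMD9 0.64, PSMB8 relative to PSMB5 -0.14 and PSMB10 relative to PSMB7 0.42. After loess they turned for PSMA7 0.37, PSMB10 0.57, PSMB2 0.36, PSMB6 0.0097, PSMB7 0.18, PSME1 0.084, PSMF1 0.0099, PSMC1 0.17, PSMC3 0.24, PSMD14 0.17, PSMD8 0.16, PSMD9 0.65, PSMB8 relative to PSMB5 -0.29 and PSMB10 relative to PSMB7 0.39. With median centring the sign turned for PSMG3 -0.022, with the mean of probe sets for PSMD4 -0.0081 and PSMB10 relative to PSMB7 0.21, and with array weights for PSMB2 0.011 and PSMD9 0.051. Without 1 array in turn PSMD9 ranged from -0.065 to 0.037 and PSMB2 from -0.074 to 0.043. PSMB9 relative to PSMB6 was 0.31 after quantile normalization (exact permutation, adjusted p = 0.131) and 0.16 after loess (0.345), neither past the threshold; without 1 array in turn it ranged from 0.91 to 1.09. The cause of these differences was not tested.

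With the replicate number as a block 25 genes fell and 4 rose, and PSMB1, PSMB4, PSMC1 and PSMD8 lost their call. PSMB9 relative to PSMB6 kept its value of 1.01 with the replicate block but did not pass (exact permutation, adjusted p = 0.188), where 5 pairs cannot give an exact p below 0.0625. Deviations of arrays with equal numbers correlated at 0.054, -0.028, 0.12, 0.12 and 0.088. These values were low, yet the array of equal number was the best match for replicates 1, 3, 4 and 5. Replicate 2 matched best with replicate 3. Whether the numbers pair the samples is therefore not settled, and the main fit does not use them. Signal near background limits PSMA8, PSMB8 and PSMB9, whose group means lie below the array medians.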

Other observations

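Noncoding transcripts named for proteasome genes were read by separate probe sets, with p-values adjusted over 54613 probe sets. PSMA3-AS1, on the opposite strand of PSMA3, was 6.74 ± 0.24 in the cell arrays and 3.78 ± 0.57 in the microvesicle arrays (SD, n = 5 each), a change of -2.95 ± 0.25 (limma adjusted p = 8.83e-07). The remaining probe sets of this transcript changed by -2.18 ± 0.32 and -1.54 ± 0.21, against -0.66 ± 0.17 for PSMA3 itself, and this difference was not tested. PSMD6-AS2 changed by -1.39 ± 0.27 in its brighter probe set (limma adjusted p = 0.000678) and by -0.049 ± 0.18 in the other. PSMB8-AS1, next to the immunoproteasome genes, rose by 1.41 ± 0.20 in a probe set that read 2.12 in cells (limma adjusted p = 6.73e-05) and stood at -0.075 ± 0.22 in the other (limma adjusted p = 0.772). PSMD14-DT rose by 0.67 ± 0.18 from 1.81 in cells (limma adjusted p = 0.00633), and PSMD7-DT (0.21 ± 0.18, limma adjusted p = 0.314) and PSMG3-AS1 (0.23 ± 0.28, 0.469) did not pass. In microvesicles the probe sets named first for PSMA3-AS1, PSMD6-AS2 and PSMB8-AS1 read 3.78, 3.90 and 3.53, below the array median of 4.26, where the size of a change is uncertain.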
